A study of Sus scrofa with 4 samples.

Results

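The 10 genes described here belong to vitamin D metabolism and renal calcium handling and were measured in 4 RNA sequencing libraries of pig kidney: CYP24A1, CYP27B1, CYP2R1, VDR, CALB1, S100G, TRPV5, KL, PTH1R and CASR. They were found by gene symbol among 26466 symbols, and all 10 of them had at least 10 counts in 1 or more libraries, as 18168 symbols had. The list was drawn up with the counts and ratios of these genes in all 4 libraries known, in particular the opposite levels of CYP27B1 and CYP24A1 in the untransplanted kidneys. Their values are therefore a description and carry no test. Each library was the only one of its group. In CD39/CD55 pigs (GalT-/-;hCD39;hCD55) the galactosyltransferase that makes the alpha-Gal antigen was absent and human CD39 and CD55 were carried. CD39/CD46/CD55/TBM pigs (GalT-/-;hCD39;hCD46;hCD55;TBM) shared these changes and also carried human CD46 and a thrombomodulin transgene (TBM). From each genotype 1 kidney was untransplanted and 1 had been transplanted into a non-human primate, 4 weeks earlier for CD39/CD55 and 6 weeks earlier for CD39/CD46/CD55/TBM. Between the grafts, genotype cannot be told apart from time since transplantation, recipient or preparation. The sources used here do not state the pigs' age or number, the recipients' treatment or the promoters that drive the transgenes.

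Vitamin D is hydroxylated in the liver by CYP2R1 to 25-hydroxyvitamin D, which the proximal tubule takes up and CYP27B1 converts to the hormone 1,25-dihydroxyvitamin D. The hormone binds the nuclear receptor VDR. CYP24A1 degrades both forms and is a textbook target of VDR, while CYP27B1 is induced by parathyroid hormone and repressed by the hormone itself and by FGF23. In the distal nephron calcium enters through the channel TRPV5, is carried through the cell by the calbindins CALB1 and S100G, and leaves by calcium pumps and exchangers. The parathyroid hormone receptor PTH1R, the calcium-sensing receptor CASR and klotho (KL), the co-receptor of FGF23, set these steps.

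Total counts ranged from 10346863 to 14092905 per library. The 5 loci taken as ribosomal RNA held from 10.8% to 22.4% of counts, more in both transplanted kidneys. Some of these loci are unnamed and were included because their counts were like those of RN18S. Mitochondrial protein genes held 10.6% (untransplanted) and 4.2% (transplanted) of counts for CD39/CD55, and 15.0% and 12.6% for CD39/CD46/CD55/TBM. The gene disrupted in every pig, listed as GGTA1P (GGTA1 in the RefSeq synonyms), had 291 to 316 counts in each library. With no unedited kidney beside them, and the edited stretch not known, these counts check no label. Levels are given as scaled CPM, which is CPM over a TMM-scaled library total. Because transcript lengths were not used, levels of different genes are not compared. A gene was called higher or lower between 2 libraries when the ratio of scaled counts was at least 2-fold and its exact 95% counting interval (Clopper-Pearson, conditional binomial) excluded 1. With 1 library per group this covers counting error only and says nothing about the spread between animals.

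**Figure D1:**
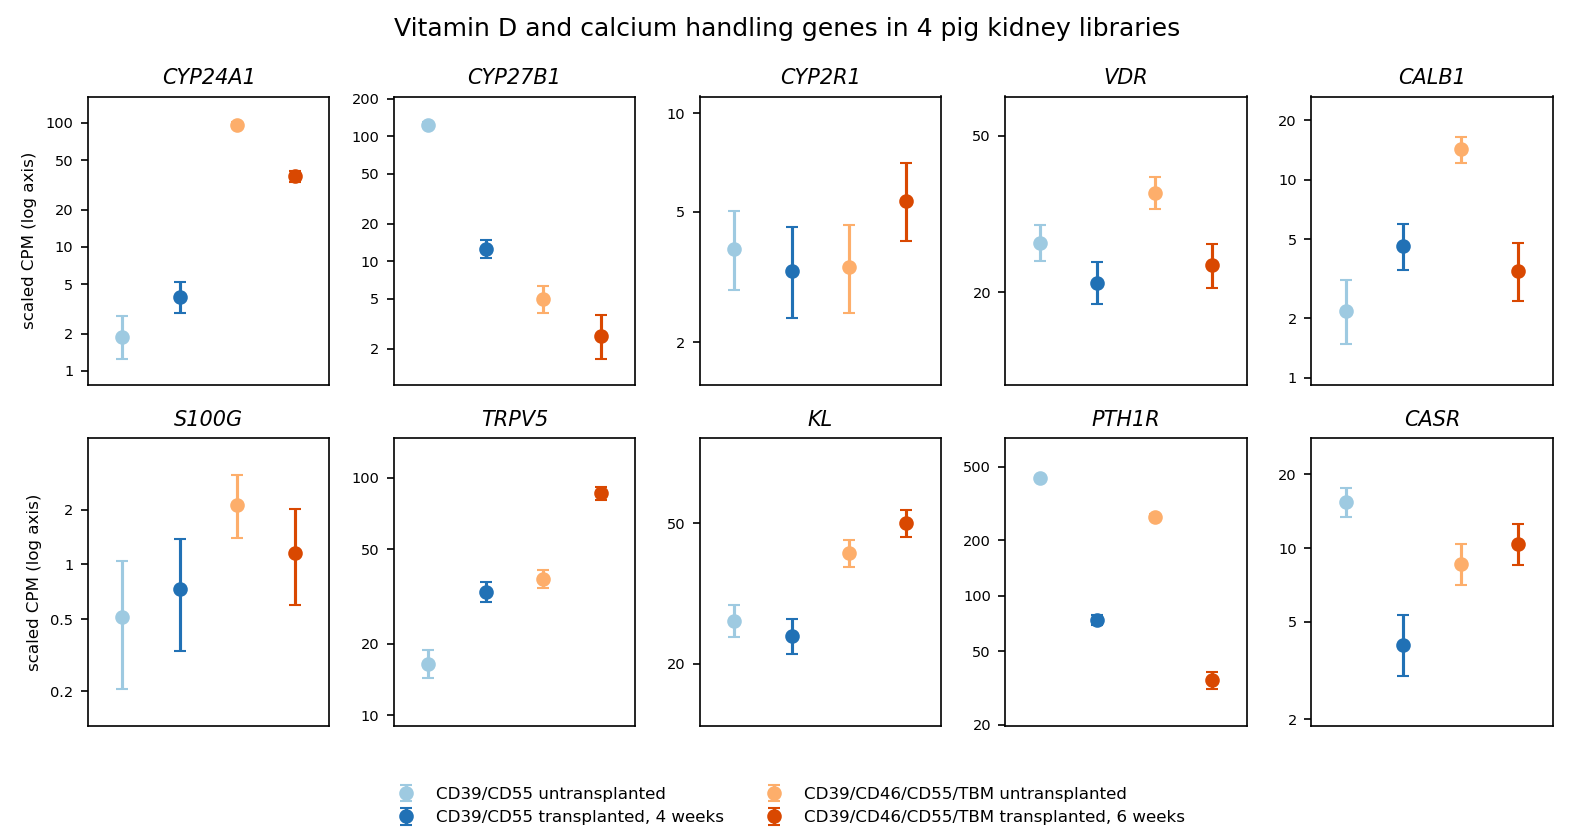
Level of each of the 10 genes in the 4 libraries, in scaled CPM on a log axis that differs between panels. Points are single libraries and bars are exact 95% Poisson counting intervals; CYP24A1 and CYP27B1 run in opposite directions across the untransplanted kidneys, and PTH1R is low in both transplanted kidneys.

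The activating and the degrading enzyme had opposite levels in the untransplanted kidneys. CYP27B1 (chromosome 5, 23053129 to 23058865, Sscrofa11.1), the 1-alpha-hydroxylase, had 1704 (untransplanted) and 155 (transplanted) counts for CD39/CD55, and 63 and 26 for CD39/CD46/CD55/TBM. The untransplanted CD39/CD55 library stood apart, at 124 scaled CPM against 12.5, 4.98 and 2.51 in the others, and both CD39/CD46/CD55/TBM libraries were below both CD39/CD55 libraries, as for 15.6% of all genes. Between the untransplanted kidneys CYP27B1 was 24.7-fold lower in CD39/CD46/CD55/TBM (log2 ratio -4.63, 95% counting interval -5.03 to -4.28), the 19th lowest ratio of 18168 genes. The transplanted CD39/CD55 kidney was 9.88-fold below the untransplanted one (-3.30, -3.56 to -3.07). In CD39/CD46/CD55/TBM the log2 ratio after transplantation was -0.97 (-1.71 to -0.31), just short of 2-fold, so CYP27B1 was not called there.

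CYP24A1 (chromosome 17, 55110546 to 55130328), the 24-hydroxylase that degrades vitamin D, had 26 (untransplanted) and 49 (transplanted) counts for CD39/CD55, and 1221 and 383 for CD39/CD46/CD55/TBM. Both CD39/CD46/CD55/TBM libraries, at 96.5 and 37.0 scaled CPM, were far above both CD39/CD55 libraries, at 1.89 and 3.96, an order 15.3% of genes shared. Between the untransplanted kidneys the gene was higher in CD39/CD46/CD55/TBM by a log2 ratio of 5.64 (5.11 to 6.29), the 7th highest ratio of 18168 genes. After transplantation it was called in opposite directions. It was 2.07-fold higher in the CD39/CD55 graft (1.05, 0.35 to 1.81) and 2.60-fold lower in that of CD39/CD46/CD55/TBM (-1.38, -1.55 to -1.22). Calls of opposite direction in the 2 genotypes were found for 0.721% of all genes. The transplanted kidneys still differed 9.27-fold (3.21, 2.79 to 3.68). Set against each other, the changes of the 2 genotypes differed by a log2 value of -2.43 for CYP24A1 and 2.33 for CYP27B1. Differences of at least 2-fold with an interval that excluded 0 were found upward in CD39/CD46/CD55/TBM for 10.4% of all genes and downward for 11.5%.

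The ratio of the counts of the 2 enzymes does not depend on library size, and only its change between libraries is read, since the gene lengths remain in it. Without transplantation there were 0.0153 CYP24A1 counts per CYP27B1 count for CD39/CD55 (exact 95% interval 0.00994 to 0.0224) and 19.4 for CD39/CD46/CD55/TBM (15.0 to 25.4). The second ratio was 1270-fold the first (Wald 95% counting interval 800 to 2018). In the CD39/CD55 graft the ratio was 0.316 (0.224 to 0.438), 20.7-fold above its untransplanted kidney (12.5 to 34.3). The other graft had 14.7 (9.90 to 22.8), 0.760 of the untransplanted value with an interval that includes 1 (0.475 to 1.22). For each enzyme, the CD39/CD55 graft lay nearer to the levels of the other genotype than the untransplanted CD39/CD55 kidney did. CYP24A1 of that graft, at 3.96 scaled CPM, was still closer to 1.89 in the untransplanted CD39/CD55 kidney than to 37.0 and 96.5. The ratios of the grafts were 46.6-fold apart (28.0 to 77.7).

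**Figure D2:**
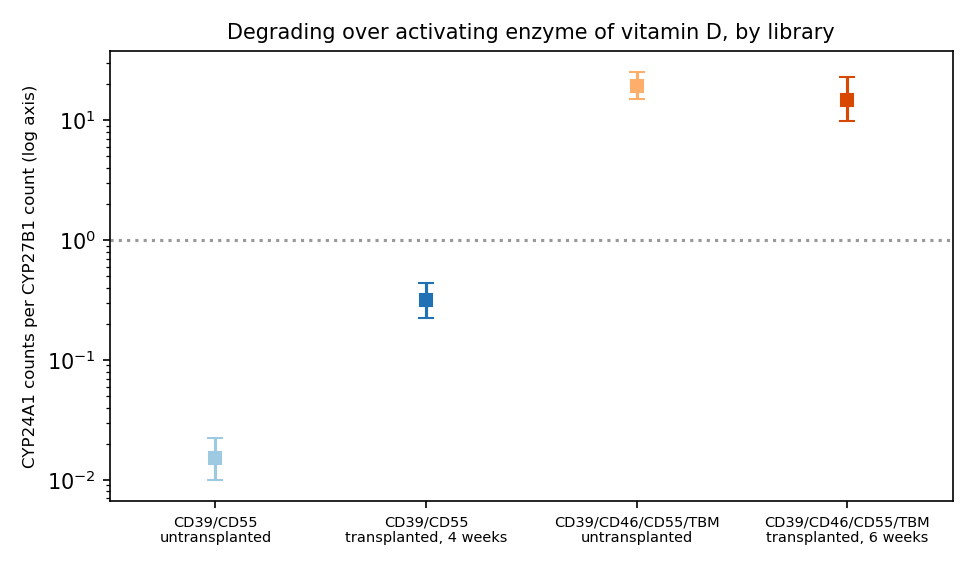
Counts of CYP24A1 per count of CYP27B1 in each library, on a log axis, with exact 95% counting intervals; the dotted line marks equal counts. The ratio is 0.0153 (untransplanted) and 0.316 (transplanted) for CD39/CD55, and 19.4 and 14.7 for CD39/CD46/CD55/TBM. Gene lengths remain in it, so only its change between libraries is read, not its place beside the line.

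CYP2R1, the 25-hydroxylase (chromosome 2, 44375432 to 44394122), did not share this pattern. It had 53 (untransplanted) and 41 (transplanted) counts for CD39/CD55, and 43 and 56 for CD39/CD46/CD55/TBM, between 3.31 and 5.41 scaled CPM, and was called in no pair of libraries. Its log2 ratio was -0.18 (-0.80 to 0.42) between the untransplanted kidneys, and after transplantation -0.22 (-0.85 to 0.39) for CD39/CD55 and 0.67 (0.07 to 1.28) for CD39/CD46/CD55/TBM. Its span overlaps that of a lncRNA gene, LOC110259296, which had at most 10 counts. The vitamin D receptor VDR (chromosome 5, 78205807 to 78266505) had 366 (untransplanted) and 261 (transplanted) counts for CD39/CD55, and 453 and 242 for CD39/CD46/CD55/TBM. Both transplanted libraries, at 21.1 and 23.4 scaled CPM, were below both untransplanted ones, at 26.7 and 35.8, as for 25.5% of all genes. The log2 ratios were -0.34 (-0.57 to -0.10) and -0.61 (-0.85 to -0.39), and VDR was called in no pair.

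The genes of distal calcium transport differed in direction. TRPV5, the calcium entry channel (chromosome 18, 7285186 to 7341965), had 226 (untransplanted) and 410 (transplanted) counts for CD39/CD55, and 475 and 889 for CD39/CD46/CD55/TBM. It was higher after transplantation in each genotype, 2.01-fold (log2 ratio 1.01, 0.77 to 1.25) and 2.29-fold (1.19, 1.03 to 1.36), as 5.88% of all genes were. The first of these lies at the threshold and was 0.998746 on the log2 scale, hence not called, with the size factors of DESeq2. Both CD39/CD46/CD55/TBM libraries were above both CD39/CD55 libraries, as for 15.3% of all genes. The annotated span of TRPV5 overlaps that of its paralog TRPV6, which had 28, 4, 29 and 49 counts in the same order of libraries. The sources used here do not say how shared reads were counted.

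CALB1, calbindin-D28k (chromosome 4, 46701276 to 46723548), had 30 (untransplanted) and 57 (transplanted) counts for CD39/CD55, and 180 and 36 for CD39/CD46/CD55/TBM. The untransplanted CD39/CD46/CD55/TBM kidney was high, at 14.2 scaled CPM, and the other 3 lay between 2.19 and 4.61. CALB1 was 6.42-fold higher in that kidney than in the untransplanted CD39/CD55 kidney (2.68, 2.14 to 3.31). Like CYP24A1 it was called in opposite directions after transplantation, with log2 ratios of 1.06 (0.41 to 1.76) for CD39/CD55 and -2.02 (-2.59 to -1.51) for CD39/CD46/CD55/TBM. S100G, calbindin-D9k (chromosome X, 13107611 to 13114213), had 7 (untransplanted) and 9 (transplanted) counts for CD39/CD55, and 27 and 12 for CD39/CD46/CD55/TBM. It was called higher between the untransplanted kidneys (1.99, 0.83 to 3.51), while its changes after transplantation, 0.49 (-1.08 to 2.17) and -0.85 (-1.995 to 0.15), were not detectable at this depth. The span of S100G overlaps that of CTPS2, whose 450, 329, 262 and 330 counts did not follow it. The sources used here do not say whether strand was used in counting, so reads of the 2 genes cannot be separated.

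**Figure D3:**
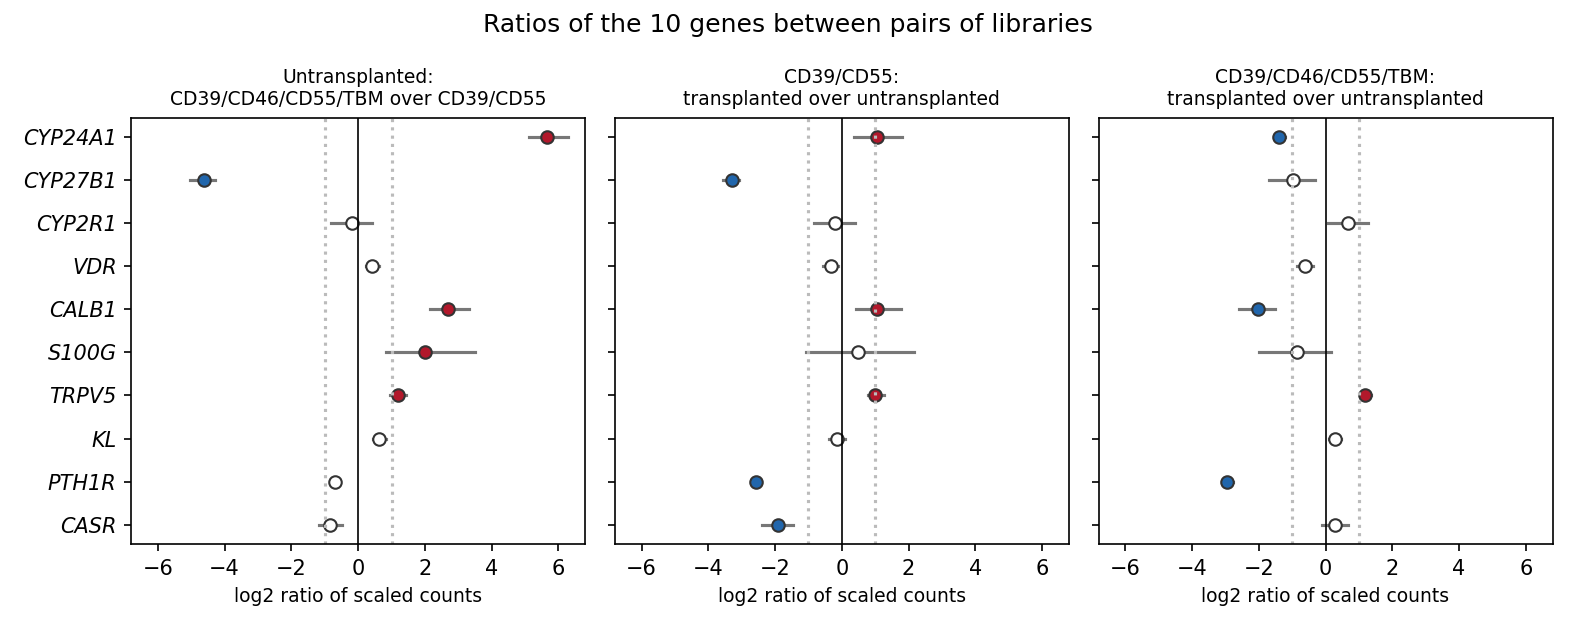
Log2 ratio of scaled counts of the 10 genes in 3 pairs of libraries, with exact 95% counting intervals; red points are called higher, blue points lower and white points not called, and dotted lines mark a 2-fold ratio. CYP24A1 and CALB1 are blue in the right panel and red in the other panels, and PTH1R is blue in both panels of transplantation.

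Of the receptors, PTH1R had the same direction in both genotypes. PTH1R (chromosome 13, 29749940 to 29775361), which the proximal tubule uses to respond to parathyroid hormone, had 5985 (untransplanted) and 914 (transplanted) counts for CD39/CD55, and 3387 and 360 for CD39/CD46/CD55/TBM. Both transplanted libraries were far below both untransplanted ones, at 73.9 and 34.8 against 436 and 268 scaled CPM, an order 25.5% of genes shared. The gene was 5.90-fold lower after transplantation in CD39/CD55 (log2 ratio -2.56, -2.66 to -2.46) and 7.68-fold lower in CD39/CD46/CD55/TBM (-2.94, -3.10 to -2.79), and 7.63% of all genes were called lower in both.

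CASR (chromosome 13, 138279785 to 138364934), which senses calcium in the thick ascending limb, had 211 (untransplanted) and 50 (transplanted) counts for CD39/CD55, and 109 and 108 for CD39/CD46/CD55/TBM. The transplanted CD39/CD55 kidney was the low library, at 4.04 scaled CPM against 8.62 to 15.4 in the others. CASR was 3.78-fold lower after transplantation in CD39/CD55 (-1.92, -2.40 to -1.48) and had a log2 ratio of 0.28 (-0.12 to 0.67) in CD39/CD46/CD55/TBM. KL (chromosome 11, 9427236 to 9479251) had 363 (untransplanted) and 296 (transplanted) counts for CD39/CD55, and 520 and 516 for CD39/CD46/CD55/TBM. Its log2 ratios after transplantation, -0.14 (-0.37 to 0.08) and 0.28 (0.10 to 0.46), were not called, and the first became 0.09 when libraries were scaled by total count without ribosomal RNA loci and mitochondrial genes. Both CD39/CD46/CD55/TBM kidneys were above both CD39/CD55 kidneys, as for 15.3% of all genes. The transplanted pair differed 2.08-fold in KL (1.06, 0.85 to 1.27).

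Counted over the 10 genes, 4 were called higher (CYP24A1, CALB1, S100G and TRPV5) and 1 lower (CYP27B1) in CD39/CD46/CD55/TBM when the untransplanted kidneys were compared. Over all genes 8.17% and 7.88% were called so. Of the genes called higher, S100G had reached 10 counts only in CD39/CD46/CD55/TBM. After transplantation 3 were called higher and 3 lower in CD39/CD55 (13.2% and 13.7% of all genes), and 1 higher and 3 lower in CD39/CD46/CD55/TBM (15.9% and 16.3%). Between the transplanted kidneys 4 were called higher and 2 lower in CD39/CD46/CD55/TBM (11.0% and 11.0%). After transplantation the median log2 ratio of the 10 was -0.18 for CD39/CD55 and -0.73 for CD39/CD46/CD55/TBM, beside 0.03 and 0.01 over all genes. These shares are given beside the counts because the genes were chosen from the same values, and nothing is read from the difference.

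Other genes of the pathway, none of them among the 10, were tested in 2 transplanted against 2 untransplanted libraries with edgeR's quasi-likelihood test, adjusted over all 18168 genes. In that test 1.24% of all genes rose and 2.71% fell, and 19.7% had an unadjusted p under 0.05. These shares belong to the fit of all 4 libraries and are no background for list counts with a library left out. Of such fits, the numbers that rose and fell over all genes were highest without the transplanted CD39/CD55 library. Each side holds both genotypes, so the spread in the test holds that difference too. The labels do not say whether the untransplanted kidney and the graft of a genotype came from separate pigs, and no group holds a second animal.

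Vitamin D reaches the tubule bound to its plasma carrier GC and is taken up by the receptors megalin (LRP2) and cubilin (CUBN). Among 22 genes of vitamin D supply, enzymes and receptor partners, 2 fell and none rose. GC had 145 (untransplanted) and 7 (transplanted) counts for CD39/CD55, and 93 and 5 for CD39/CD46/CD55/TBM, and fell by 4.06 on the log2 scale (SE 0.61, edgeR adjusted p = 0.00441). LRP2 fell by 3.53 (SE 0.60, edgeR adjusted p = 0.00825). CUBN had 14021 (untransplanted) and 5619 (transplanted) counts for CD39/CD55, and 11879 and 3981 for CD39/CD46/CD55/TBM, with an edgeR adjusted p of 0.176. CUBN passed with genotype as a block (edgeR adjusted p = 0.0411) and in DESeq2's Wald test (adjusted p = 0.0399), with a log2 fold change of -1.23 in each. FDX1, the ferredoxin that passes electrons to the mitochondrial enzymes CYP27B1 and CYP24A1, had 636 and 554 counts, and 563 and 295. CYP27A1, another 25-hydroxylase, had 60 to 87 counts in each library. RXRA, the partner of VDR on DNA, had 1526 and 1102 counts, and 1319 and 447 (edgeR adjusted p = 0.415). The list's median log2 fold change was -0.28, beside 0.03 over all genes. Without the transplanted CD39/CD55 library 4 of the list fell and 1 rose.

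Besides CYP24A1, the genes CALB1, S100G and TRPV5 are known targets of VDR in the kidney, and a further 18 known targets outside the 10 genes were listed. Of these 18, 15 had enough counts, and 1, SPP1, rose after transplantation while none fell. SPP1 encodes osteopontin, which injured tubules also make, and went from 877 to 17836 counts (CD39/CD55) and from 597 to 25798 (CD39/CD46/CD55/TBM) (log2 fold change 5.15, SE 0.61, edgeR adjusted p = 0.00124). THBD, the pig gene of thrombomodulin, is on this list and had 200, 16, 102 and 65 counts (CD39/CD55 untransplanted and transplanted, then CD39/CD46/CD55/TBM). The sources used here do not say whether reads of the transgene were assigned to it. The list's median was 0.20, and -0.10 without the transplanted CD39/CD55 library, where 2 of the list fell. Left out in turn, either CD39/CD46/CD55/TBM library gave 1 that fell. Between the untransplanted kidneys CYP24A1, CALB1, S100G and TRPV5 were called higher in CD39/CD46/CD55/TBM, with log2 ratios of 5.64, 2.68, 1.99 and 1.19. These genes belong to the 10 chosen with these values known, so their shared direction carries no test. S100G reached 10 counts only in CD39/CD46/CD55/TBM. None of the 15 further targets was called higher between the same kidneys (8.17% of all genes). Of the 15, 3 were called lower (7.88%), namely CDKN1A, CLDN2 and SERPINB1. Nothing is read from the contrast with the chosen genes. The median log2 ratio of the 15 was -0.44, beside 0.01 over all genes. TRPV6, a calcium channel induced by vitamin D in the intestine, had 28 and 29 counts in these kidneys.

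Among 30 measured genes of calcium and magnesium transport other than the 10, 4 fell and none rose. SLC12A3, the thiazide-sensitive cotransporter of the distal convoluted tubule, had 2934 (untransplanted) and 81 (transplanted) counts for CD39/CD55, and 3094 and 23 for CD39/CD46/CD55/TBM (log2 fold change -5.69, SE 0.61, edgeR adjusted p = 0.00098). The others were EGF, a growth factor that stimulates magnesium uptake (-2.39, SE 0.43, edgeR adjusted p = 0.0111), the calcium-binding protein gene PVALB (-2.45, SE 0.56, edgeR adjusted p = 0.0288) and CLDN19, a claudin of the thick ascending limb (-2.19, SE 0.46, edgeR adjusted p = 0.0206). Without the untransplanted CD39/CD55 library PVALB and CLDN19 did not pass (edgeR adjusted p = 0.0986 and 0.12), which left 2 that fell, and without the transplanted CD39/CD55 library 7 fell. SLC12A3, PVALB and TRPV5 are all genes of the distal nephron, and the first 2 fell where TRPV5 was 2.01-fold and 2.29-fold higher. The magnesium channel gene TRPM6 had 891 (untransplanted) and 813 (transplanted) counts for CD39/CD55, and 1405 and 600 for CD39/CD46/CD55/TBM. The genes of calcium exit, ATP2B1 and SLC8A1, did not pass (edgeR adjusted p = 0.34 and 0.806). ATP2B1, a plasma membrane calcium pump, had 1980 and 1004 counts, and 2180 and 1091. SLC8A1, the sodium-calcium exchanger, had 842 and 817 counts, and 2238 and 1339. Between the untransplanted kidneys it was the 1 gene of these 30 called higher in CD39/CD46/CD55/TBM (1.53, 1.41 to 1.64), and 5 were called lower. Over all genes 8.17% were called higher and 7.88% lower between these kidneys.

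**Figure D4:**
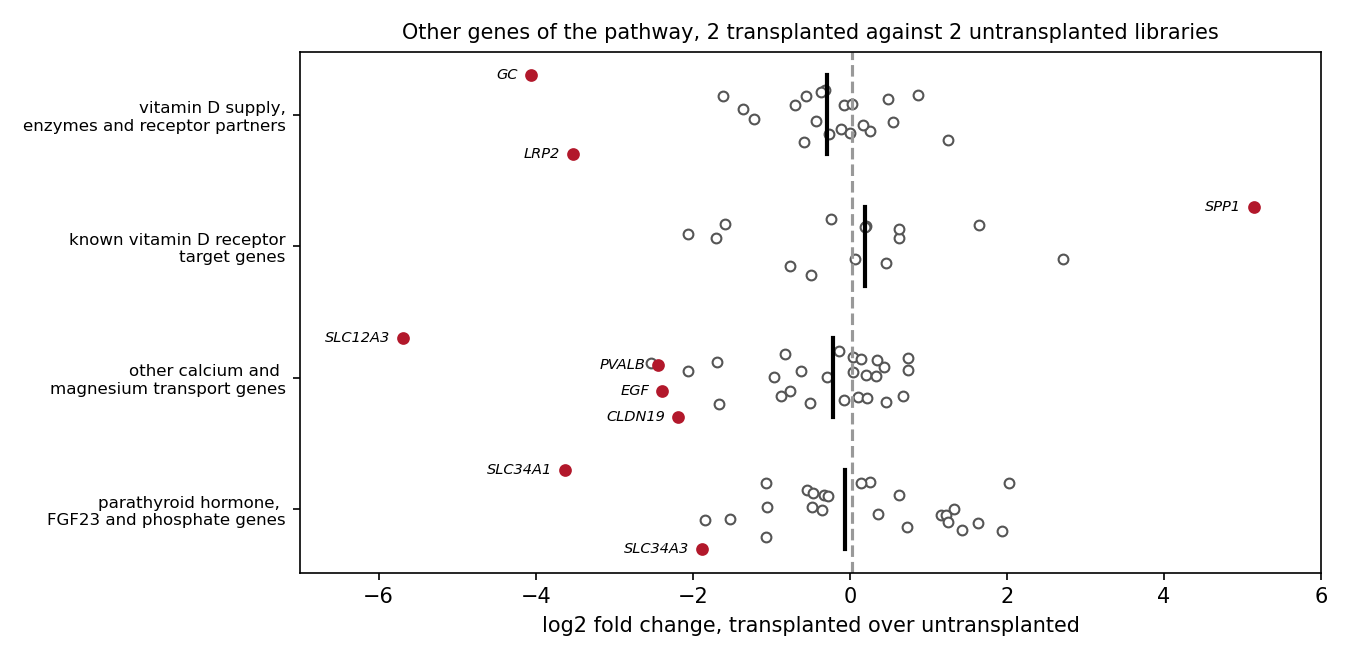
Log2 fold change of transplanted over untransplanted kidney for the tested genes of 4 lists, from edgeR's quasi-likelihood test on 2 against 2 libraries. Filled red points passed at an adjusted p under 0.05 and are named, black bars are list medians and the dashed line is the median of all genes (0.03); 8 genes fell and SPP1 rose.

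Parathyroid hormone and FGF23 both remove phosphate transporters from the proximal tubule. Among 26 measured genes of these hormones and of phosphate handling, 2 fell and none rose. SLC34A1, the main phosphate cotransporter of the proximal tubule, had 12607 (untransplanted) and 890 (transplanted) counts for CD39/CD55, and 12828 and 876 for CD39/CD46/CD55/TBM (log2 fold change -3.63, SE 0.51, edgeR adjusted p = 0.00313). SLC34A3, its relative in the same segment, had 1460 and 353 counts, and 726 and 164 (-1.88, SE 0.47, edgeR adjusted p = 0.0447). SLC34A3 did not pass without the untransplanted CD39/CD55 library (edgeR adjusted p = 0.266) or without the transplanted CD39/CD46/CD55/TBM library (0.111), which left 1 that fell in either case. With the transplanted CD39/CD55 library left out 6 fell and 8 rose. With the untransplanted CD39/CD46/CD55/TBM library left out 3 fell and 2 rose. FGFR1, the FGF23 receptor that pairs with klotho, had 109 (untransplanted) and 237 (transplanted) counts for CD39/CD55, and 198 and 799 for CD39/CD46/CD55/TBM (log2 fold change 2.03, SE 0.60, edgeR adjusted p = 0.0837), and its adjusted p ranged from 2.67e-05 to 0.668 over the alternatives. FGF23 itself had 1 or 2 counts in each library and PTHLH none, which allows up to 0.29 scaled CPM at the shallowest library's floor of 3 counts. The hormone gene STC1 had at most 5. The list's median was -0.07, and it ranged from -0.21 to 0.23 when single libraries were left out.

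When the genotypes were compared over both states, 2 libraries against 2, no gene of the 18168 passed edgeR's quasi-likelihood test in either direction, so none of the pathway genes did. At an unadjusted p under 0.05 there were 449 genes (2.47%), and DESeq2's Wald test called 12 higher and 5 lower in CD39/CD46/CD55/TBM.

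Markers of the cells that hold the 10 genes were set beside them. Because these are whole-kidney samples, fewer cells of a type and less RNA per cell cannot be told apart. The 12 proximal tubule markers summed to 9167 (CD39/CD55) and 10355 (CD39/CD46/CD55/TBM) scaled CPM without transplantation, against 5378 and 2656 after transplantation. SLC22A6 was the 1 marker at 0, in the CD39/CD46/CD55/TBM graft, and 10 of the 12 fell in edgeR's test. PTH1R, LRP2 and SLC34A1 were low in the same libraries, and the part of these sums in their change was not tested. The 12 macrophage and monocyte markers, cells that can also make CYP27B1, summed to 96.8 and 91.9 scaled CPM in the untransplanted kidneys and 13.7 and 23.1 in the transplanted ones, in the order of genotypes above. C1QC was at 0 in both transplanted kidneys, and 7 of the 12 fell in edgeR's test. CD14 went the other way, from 21 to 48 counts (CD39/CD55) and from 12 to 41 (CD39/CD46/CD55/TBM). It was the 1 marker of this list called higher after transplantation in each genotype (log2 ratios 1.32 and 2.02), as 5.88% of all genes were. Between the untransplanted CD39/CD55 and CD39/CD46/CD55/TBM kidneys, in that order, the proximal tubule sums were 9167 and 10355, the macrophage sums 96.8 and 91.9, and the levels of CYP27B1 124 and 4.98 scaled CPM.

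The 6 distal convoluted tubule markers summed to 1997 and 1468 scaled CPM in the untransplanted kidneys and 952 and 575 in the transplanted ones. None was at 0 and 3 of 6 fell. FXYD2 made up 19442 of the 27406 counts of this sum in the untransplanted CD39/CD55 kidney. The 10 markers of the connecting tubule and principal cells, next to the distal convoluted tubule, were summed too. Their sums were 103 (untransplanted) and 132 (transplanted) scaled CPM for CD39/CD55, and 141 and 141 for CD39/CD46/CD55/TBM. GATA3 made up 674 of the 1408 counts of this sum in the untransplanted CD39/CD55 kidney. HSD11B2 had 8 to 34 counts a library and AQP2 had 2 to 27. AQP3, AQP4 or both were at 0 in every library, and none of the 10 rose or fell. The 8 markers of the thick ascending limb, where CASR is found, summed to 3891 (untransplanted) and 877 (transplanted) for CD39/CD55, and 1754 and 606 for CD39/CD46/CD55/TBM, with none at 0 and 2 of 8 that fell. Most of this sum was UMOD, which made up 45070 of its 53407 counts when the CD39/CD55 kidney was untransplanted. UMOD had log2 ratios after transplantation of -2.55 for CD39/CD55 and -2.48 for CD39/CD46/CD55/TBM. SLC12A1 had 0.03 and 0.34, KCNJ1 -0.04 and 0.37, and CLDN16 -0.998 and 1.75, beside -1.92 and 0.28 for CASR. The remaining markers of this segment were below 0 in both genotypes. CLDN19 had -2.58 and -1.64, EGF -2.52 and -2.25, CLDN10 -0.90 and -0.75, and PTGER3 -0.55 and -0.69. The part of the markers of these segments in the changes of TRPV5, CALB1 and CASR was not tested.

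Neighbouring genes were read for overlap. METTL1 lies 135 bases from CYP27B1 in the annotation and had 591, 262, 575 and 142 counts, so it did not share the difference between the untransplanted kidneys. The lncRNA gene LOC106506724, 13005 bases from CYP24A1, had 8 (untransplanted) and 10 (transplanted) counts for CD39/CD55, and 62 and 32 for CD39/CD46/CD55/TBM. Of 14327 genes with at least 100 counts in all, the one whose pattern over the 4 libraries was most like that of CYP27B1 was SLC7A5, with 361, 27, 15 and 4 counts and a root mean square difference of 0.21 on the centred log2 scale. CTSZ and WDR24 came next, at 0.72 and 0.78. The nearest to CYP24A1 were LOC102161379, ATP8 and TMEM71, at 0.66 to 0.75, and the nearest to KL were LUZP1, HMBOX1 and SOCS1, at 0.03 to 0.05. These likenesses rest on 4 libraries and carry no test.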

How the data were processed

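Each of the 4 libraries has 1 deposited file with whole-number counts per gene symbol, which the authors had not normalized. RNA was isolated by phenol/chloroform and sequenced with a QuantSeq kit from Lexogen, per the labels' protocols; whether only 3' ends were read was not settled. Bowtie2 and bedtools were used with the build Sscrofa11.1, per the submitters' processing notes. The handling of strand, multiple matches and primate reads, and the tool versions, were not given in the sources used here.

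Lines of the 81 repeated symbols, none of them of the 10 genes, were summed. All 26466 symbols are in the RefSeq table of Sscrofa11.1, which gave the coordinates. Spearman correlations between libraries ranged from 0.909 to 0.965 across symbols with a count, and no pair of files was identical. The 18168 genes that reached 10 counts in any library were kept and scaled by TMM (edgeR 4.0.16, R 4.3.3). Log2 ratios used a prior count of 0.5, and the difference of 2 transplantation changes a 95% Wald counting interval. Intervals and floors (3 counts) cover counting error only, since no source names molecular identifiers. Libraries were tested 2 against 2 by edgeR's quasi-likelihood method (2 residual degrees of freedom, Benjamini-Hochberg adjustment, threshold 0.05); its SE is the log2 fold change over the square root of F. It was also run on simulated counts with a fixed dispersion and no difference between genotypes. That run therefore does not cover the spread that the genotypes add within a side here. Alternatives used DESeq2 1.42.0, limma voom 3.58.1, other scalings, a block, no filter and libraries left out.

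The 10 genes and all lists were chosen with earlier results of these data known. Named are the 10 genes, list genes past the test (at most 8 a list, by p), and a fixed set of partners. For CYP24A1, CYP27B1 and KL the 3 genes of most similar pattern are named as well. A promoter motif search was not run, because no sequences were used here. Genes named for a count of 5 or fewer, METTL1, LOC106506724, LOC110259296, THBD, CTPS2 and CD14 were chosen after their values were seen. So were the named markers of the thick ascending limb, connecting tubule and principal cells.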

Additional observations from a re-analysis of the deposited data

Results flagged for a closer look

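For 4 of the 10 genes the change after transplantation differed between the genotypes by at least 2-fold, with a Wald 95% counting interval that excluded equality. The difference was not tested over animals, since each change rests on 1 library a side, and over all genes 10.4% had a higher and 11.5% a lower change in CD39/CD46/CD55/TBM by the same measure. CALB1 differed by a log2 value of -3.08 (-3.90 to -2.27) and CYP24A1 by -2.43 (-3.13 to -1.73), both higher after transplantation in CD39/CD55 and lower in CD39/CD46/CD55/TBM. CYP27B1 differed by 2.33 (1.64 to 3.03), being lower in both grafts but more so in CD39/CD55, and CASR by 2.19 (1.61 to 2.78). In CALB1, CYP24A1 and CYP27B1 the untransplanted kidneys already differed by more than the transplanted ones. The weeks after transplantation cannot be told apart from genotype here.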

How the results depend on the processing

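The 200 member ratios recomputed under other scalings or a prior count of 2 kept their sign wherever they were called. Of these, 194 stayed within the main counting interval, 6 moved beyond it and 2 calls were lost, TRPV5 in CD39/CD55 (DESeq2 size factors) and KL between the transplanted kidneys (0.96, total count). KL and CYP2R1 in CD39/CD55, neither of them called, turned sign (0.09 and 0.02) under total count without ribosomal RNA loci and mitochondrial genes. That scaling moved the median of all genes there from 0.03 to 0.26, and the split of calls from 2397 higher and 2492 lower to 3436 and 1787 (2962 and 2054 under total count). The enzyme ratios stayed within their intervals with 1 count added. Over all genes 225 rose and 493 fell after transplantation, against 1124 and 1681 when genotype was a block, 413 and 860 by DESeq2's Wald test, and 543 and 1035 without a filter. When single libraries were left out, 188 to 1055 rose and 410 to 1374 fell, the highest without the transplanted CD39/CD55 library. With that of the untransplanted CD39/CD46/CD55/TBM kidney left out 371 rose. A lone library left on a side is assumed to vary like the other side. Between genotypes no gene passed, but 133 higher and 171 lower did with state as a block, and 12 and 5 with DESeq2's Wald test. When single libraries were left out, 0 to 9 were higher, the 9 without the untransplanted CD39/CD55 library, and 0 to 3 lower. The causes were not tested. In the vitamin D supply list 1 rose and 5 fell with the block, and 0 to 1 rose and 2 to 4 fell with a library left out. Of VDR targets 1 fell with DESeq2's Wald test, 3 with the block, 2 without a filter and 0 to 2 with a library left out. Of calcium and magnesium genes 7 fell under each of DESeq2's Wald test, the block and no filter, and 2 to 7 with a library left out. Of parathyroid hormone and phosphate genes 2 rose and 4 fell with DESeq2's Wald test, 6 rose and 5 fell with the block, 2 rose without a filter, and 0 to 8 rose and 1 to 6 fell with a library left out. The labels carry no replicate numbers, so genotype and state were the blocks used. Counts were low for S100G (7 to 27 a library) and for STC1, FGF23 and PTHLH (at most 5).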
